A study of Mus musculus with 11 samples.

Results

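Regulatory T cells are the suppressive branch of the CD4 T cell lineage, and 8 genes that mark them when they arise in the thymus were examined in each mouse: Foxp3, Ikzf2, Ikzf4, Il2ra, Il2rb, Ctla4, Tnfrsf18 and Tnfrsf4. The genes were chosen by name and matched through GENCODE names on the mouse genome GRCm38 to the Ensembl identifiers of the count table. All 8 were found among its 54418 genes. RNA had been sequenced from thymocytes of mice aged 8 to 12 weeks: 4 wild-type (wt) animals, 4 that lacked Zmat3 (Zmat3-/-) and 3 triple knockouts that lacked Puma, p21 and Zmat3 (TKO). All 3 genotypes were on a C57BL/6-WEHI background and no treatment is named for any of them. The mutants are knockout mice in which no promoter or Cre line restricts the loss to T cells. Zmat3 encodes an RNA-binding zinc finger protein, Puma (gene symbol Bbc3) a pro-apoptotic BH3-only protein and p21 (gene symbol Cdkn1a) an inhibitor of cyclin-dependent kinases, and all are targets of TRP53. The 3 comparisons asked how thymocyte transcripts differ after loss of Zmat3 alone, after loss of all 3 genes, and between both mutants.

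FOXP3 is the transcription factor that defines the regulatory lineage. In the thymus, CD4 thymocytes with strong T cell receptor signals first gain the high-affinity IL-2 receptor and the TNF receptors GITR and OX40, and IL-2 acting through STAT5 then helps to switch on Foxp3. Most of the other genes are not private to this lineage: CD25 (Il2ra) also marks early double-negative thymocytes, CD122 (Il2rb) is carried by natural killer (NK) and memory-type T cells, and GITR, OX40 and CTLA-4 are induced in other activated T cells. Each library was a whole-thymus suspension with no sort for regulatory T cells. In such bulk RNA, fewer cells of a type and less RNA per cell cannot be told apart.

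The libraries held 17669715 to 80207003 estimated counts. The targeted genes were read as a check of the labels. Zmat3 had 9.88, 12.2, 26.8 and 26.8 CPM (estimated counts brought to a common library size) in wt mice 1 to 4, while the Zmat3-/- mice had 5.34 to 6.85 and the TKO mice 7.78 to 8.25. Bbc3 had 16.8 to 20.1 CPM in wt mice, 15.3 to 19.8 where only Zmat3 was lost and 12.9 to 15.2 in TKO mice, and Cdkn1a had 3.53 to 10.4, 4.77 to 8.53 and 2.49 to 3.52. Each was thus lower in every mouse that lacked it than in every wt mouse, but was still counted there. For Cdkn1a the groups barely parted, with 3.52 CPM in TKO mouse 1 and 3.53 in wt mouse 3. The high wt values, 8.20 and 10.4, were those of wt mice 1 and 2. None of the 3 passed edgeR's test in its knockout over wt mice. There Zmat3 had adjusted p = 0.0786 in Zmat3-/- and 0.371 in TKO mice, and in TKO mice Bbc3 had 0.399 and Cdkn1a 0.443. Mitochondrial transcripts took 4.25% to 6.31% of the counts of wt mice, 6.54% to 14.6% of those of Zmat3-/- mice and 3.86% to 9.29% of those of TKO mice, so that every Zmat3-/- mouse was above every wt mouse. The wt mice fell into 2 pairs. Across genes, which are not independent replicates, log2 CPM correlated at 0.982 between wt mice 1 and 2 and at 0.982 between wt mice 3 and 4, but at only 0.895 to 0.924 across the pairs, while mice of the same mutant genotype correlated at 0.971 to 0.990. Xist, the RNA of the inactive X chromosome, was high (505 to 1485 CPM) in mice 1 and 2 of both the wt and the Zmat3-/- group and in the first TKO mouse, and at 0.806 to 2.54 CPM elsewhere. The labels give no sex. Results that differ without wt mice 1 and 2 are therefore given both ways.

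RefSeq promoter windows on GRCm38.p6, from 250 bases before to 50 after the start of transcription, were at hand for 5 of the genes (6 windows), and the bases before the start are shown for the lineage factor, for Ctla4, which was higher in every mutant mouse than in every wt mouse, and for the neighbouring receptor genes that moved together among the wt mice. Stretches annotated as untranslated exon are left out, all are on the plus strand, and capitals mark a match to a STAT motif (TTCNNNGAA).
Foxp3, chrX:7580233-7580482: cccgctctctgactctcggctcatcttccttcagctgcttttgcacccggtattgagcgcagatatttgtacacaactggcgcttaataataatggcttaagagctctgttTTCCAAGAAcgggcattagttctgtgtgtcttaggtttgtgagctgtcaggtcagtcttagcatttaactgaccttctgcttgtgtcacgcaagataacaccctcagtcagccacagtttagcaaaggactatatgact
Ctla4, chr1:60908775-60909024: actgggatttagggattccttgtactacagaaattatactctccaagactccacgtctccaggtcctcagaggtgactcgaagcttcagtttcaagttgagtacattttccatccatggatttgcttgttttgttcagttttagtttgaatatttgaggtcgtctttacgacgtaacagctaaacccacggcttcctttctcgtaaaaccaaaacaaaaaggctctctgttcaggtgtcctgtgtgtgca
Tnfrsf18, chr4:156026072-156026163: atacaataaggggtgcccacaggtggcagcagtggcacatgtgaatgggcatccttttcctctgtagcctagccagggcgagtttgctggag
Tnfrsf4, chr4:156013611-156013694: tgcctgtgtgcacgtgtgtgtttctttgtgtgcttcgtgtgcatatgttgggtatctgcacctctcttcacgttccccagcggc

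On both strands of the whole windows, 4 motifs were searched: TTCNNNGAA for STAT factors, TGANTCA for AP-1, the NF-kB consensus and TGTTTAC for forkhead factors. The STAT letters occurred in the Foxp3 window above, 139 bases before the start. The other Foxp3 window, chrX:7579426-7579725, is not shown and held no match to any of the 4 motifs. In the Tnfrsf18 window the STAT letters lay 99 bases before the start, in an annotated untranslated stretch that is not shown. The NF-kB letters occurred in the Il2ra window, 201 bases before the start. Of all 32851 windows of this length, 8.30% held the STAT letters, 7.81% the AP-1 letters, 4.79% the NF-kB letters and 3.65% the forkhead letters. A match describes the letters and not a bound site.

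All 8 genes were counted in every mouse and passed the filter on low counts in each comparison. Scaled per kilobase of annotated exon, so that genes can be set beside each other, Tnfrsf18 was at the highest level with a mean of 15.8 CPM per kb over the 11 mice. Ikzf2 followed at 10.8, Il2rb at 8.15, Il2ra at 6.95, Tnfrsf4 at 6.64 and Ctla4 at 4.62, and the lowest were Ikzf4 at 1.26 and Foxp3 at 0.830. The order was not the same in all mice: over the 4 wt mice alone Tnfrsf4, at 9.15 CPM per kb, was above Il2rb at 8.14 and Il2ra at 6.97, and in wt mouse 4 Ikzf2, at 12.7, was just above Tnfrsf18, at 12.6. Foxp3 rested on 67 to 313 counts per mouse, Ikzf4 on 131 to 438 and Tnfrsf4 on 139 to 720, whereas Ikzf2 had 2175 to 10217. The label of a thymus sample was checked against genes of developing alpha-beta T cells, and all 11 mice had 299 to 561 CPM of Cd3e, 959 to 1452 of Cd4, 1492 to 2027 of Cd8a and 1603 to 6165 of Rag1.

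**Figure D1:**
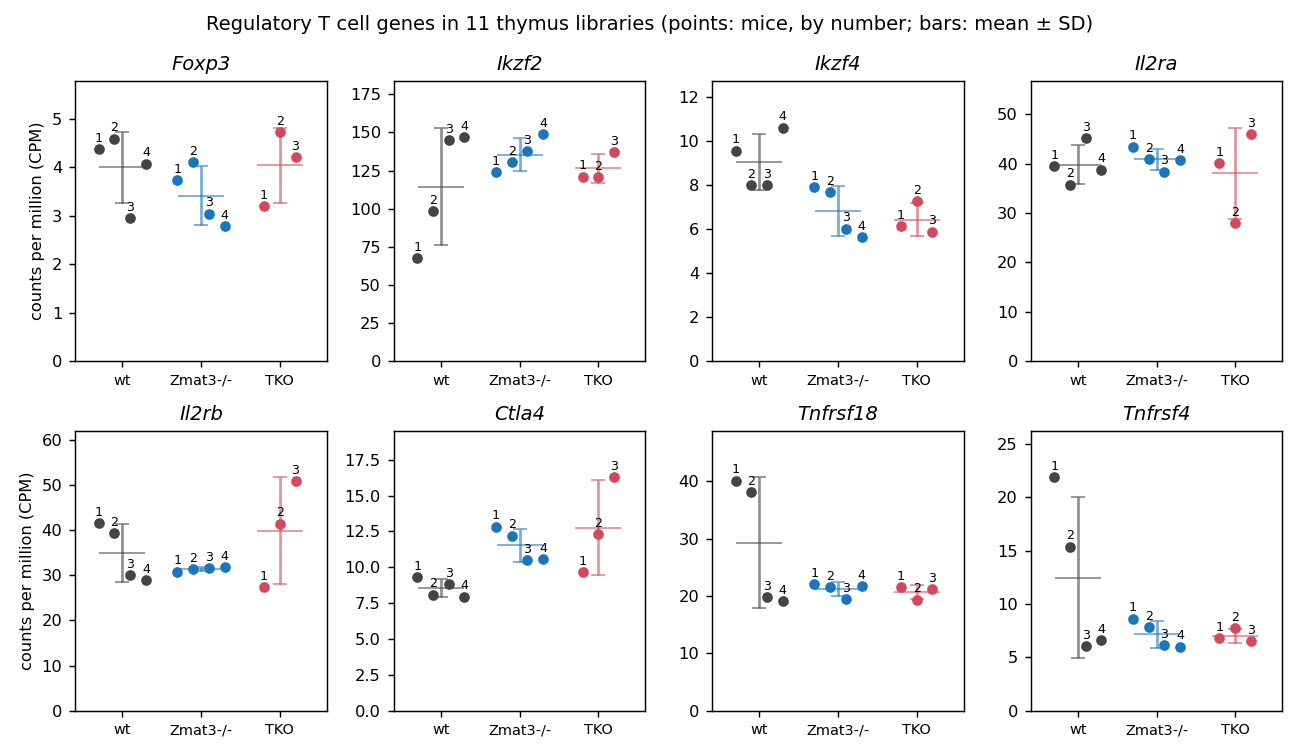
CPM (vertical axes, from 0) of the 8 genes in each mouse, by genotype; points are mice labelled by number and bars are the mean ± SD of 4 wt, 4 Zmat3-/- and 3 TKO mice. Ctla4 is lowest and Ikzf4 highest in wt mice with no overlap, and wt mice 1 and 2 lie far above wt mice 3 and 4 for Tnfrsf18 and Tnfrsf4 and below them for Ikzf2.

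Among the transcription factors, Foxp3 had the least data and no separation by genotype. Its gene (ENSMUSG00000039521, plus strand, chrX:7573644-7595245) was counted at 4.38, 4.59, 2.95 and 4.08 CPM in wt mice 1 to 4, at 3.73, 4.10, 3.05 and 2.78 in Zmat3-/- mice 1 to 4, and at 3.20, 4.72 and 4.21 in TKO mice 1 to 3. All groups overlapped, and the order of the means, TKO 4.04 ± 0.777 (SD, n = 3), wt 4.00 ± 0.733 (SD, n = 4) and Zmat3-/- 3.41 ± 0.608 (SD, n = 4), had no neighbours that differed beyond this spread. The fold was 0.858 in Zmat3-/- over wt mice (95% interval of the log2 fold change (log2FC) from -0.69 to 0.25, adjusted p = 0.619 from edgeR) and 0.981 in TKO over wt mice (-0.63 to 0.57, adjusted p = 0.968). The last fold, fitted on counts, is below 1 although the mean CPM was slightly higher in TKO mice, and its direction is not settled. Leaving out wt mice 1 and 2 gave a Foxp3 log2FC of -0.06 (adjusted p = 0.878) in Zmat3-/- and 0.13 (adjusted p = 0.802) in TKO mice. Foxp3 lies on the X chromosome, and its level was 3.20 to 4.59 CPM in the 5 mice with high Xist and 2.78 to 4.72 in the other 6. Other genes overlap 31.5% of its exon bases: Flicr, a non-coding RNA on the same strand, and Ccdc22, Ppp1r3f and Gm36995 on the opposite strand. Ccdc22 alone had 454 to 2301 counts per mouse, and the library kit does not mark strand, so part of the small Foxp3 count is uncertain.

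Ikzf2 encodes Helios, an Ikaros family zinc finger protein found in most regulatory T cells that arise in the thymus. It (minus strand, chr1:69531214-69687245) had 67.4, 98.4, 145 and 147 CPM in wt mice 1 to 4, against 124, 131, 138 and 149 in Zmat3-/- and 121, 121 and 137 in TKO mice. Only wt mice 1 and 2 lay below the mutants. The means were 114 ± 38.6 (SD, n = 4), 135 ± 10.7 (SD, n = 4) and 126 ± 9.46 CPM (SD, n = 3), and the log2FC over wt mice was 0.24 in Zmat3-/- (SE 0.243, adjusted p = 0.640) and 0.09 in TKO mice (SE 0.273, adjusted p = 0.900). Without wt mice 1 and 2 these turned to -0.13 (adjusted p = 0.179) and -0.27 (adjusted p = 0.0667).

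Ikzf4 encodes Eos, an Ikaros family partner of FOXP3 in gene silencing. It (minus strand, chr10:128630843-128645991) had 9.57, 8.02, 8.01 and 10.6 CPM in wt mice, 7.93, 7.68, 6.03 and 5.65 in Zmat3-/- mice, and 6.14, 7.28 and 5.89 in TKO mice. Every wt mouse was above every mutant mouse, by the least for wt mouse 3 and Zmat3-/- mouse 1. The log2FC over wt mice was -0.40 in Zmat3-/- (SE 0.173, 95% interval -0.80 to -0.01, adjusted p = 0.301) and -0.53 in TKO mice (SE 0.213, 95% interval -1.02 to -0.04, adjusted p = 0.453), so neither passed the adjustment. Both comparisons use the same 4 wt mice. Without wt mice 1 and 2 the values were -0.46 (adjusted p = 0.0852) and -0.60 (adjusted p = 0.141).

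The IL-2 receptor chains showed no difference between genotypes at the threshold. Il2ra encodes the alpha chain CD25 and lies on the plus strand at chr2:11642807-11693193. It had 39.5, 35.7, 45.1 and 38.8 CPM in wt mice, 43.4, 41.0, 38.4 and 40.7 in Zmat3-/- mice, and 40.1, 27.9 and 46.0 in TKO mice. The TKO mice spanned the lowest and the highest value of all 11 mice. The log2FC was 0.04 in Zmat3-/- over wt mice (SE 0.102, 95% interval -0.19 to 0.28, adjusted p = 0.850) and -0.12 in TKO over wt mice (SE 0.165, adjusted p = 0.783). The values without wt mice 1 and 2 were -0.06 (adjusted p = 0.644) and -0.21 (adjusted p = 0.414), and with the GC content and length offset the Zmat3-/- value was -0.09 (adjusted p = 0.667). A list of 10 genes of early double-negative thymocytes (Kit, Hhex, Lyl1, Erg, Dtx1, Hes1, Notch3, Ptcra, Il7r and Bcl11a), all of them counted, summed to 163 CPM in TKO mouse 2, the lowest sum of all mice, and to 238 in TKO mouse 3, the highest. Of that list, Notch3 differed most between these mice in CPM, with 48.5 in TKO mouse 2 and 92.3 in TKO mouse 3. Hhex, Lyl1, Erg and Bcl11a were instead lower in TKO mouse 3. TKO mice 2 and 3 also had the lowest and the highest Il2ra, and the part of early double-negative cells in the Il2ra level was not tested.

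Il2rb encodes the beta chain CD122, which carries the signal to JAK kinases, and lies on the minus strand at chr15:78479256-78495271. It had 41.5, 39.3, 29.9 and 28.8 CPM in wt mice, 30.8, 31.3, 31.5 and 31.8 in Zmat3-/- mice, and 27.3, 41.4 and 50.8 in TKO mice. The Zmat3-/- mice lay within 1.03-fold of each other and between the wt pairs, and the TKO mice spread 1.86-fold. The log2FC was -0.15 in Zmat3-/- over wt mice (SE 0.126, adjusted p = 0.593), 0.14 in TKO over wt mice (SE 0.214, adjusted p = 0.803) and 0.28 in TKO over Zmat3-/- mice (SE 0.142, 95% interval -0.03 to 0.60, adjusted p = 0.983). With wt mice 1 and 2 left out, the Il2rb log2FC over wt mice was 0.07 (adjusted p = 0.452) in Zmat3-/- and 0.36 (adjusted p = 0.264) in TKO mice. Single TKO mice moved it too: without TKO mouse 1 it was 0.36 in TKO over wt mice (adjusted p = 0.748) and 0.47 in TKO over Zmat3-/- mice (adjusted p = 0.0630), and without TKO mouse 3 it was 0.012 (adjusted p = 0.993) and 0.15 (adjusted p = 0.921). Over all mice left out singly it ranged from 0.012 to 0.36 and from 0.15 to 0.47. The 12 genes of NK, NKT and innate-like T cells (such as Nkg7, Klrd1, Tbx21, Zbtb16 and Gzma) summed to 179 and 147 CPM in wt mice 1 and 2, where Il2rb was also high, to 82.6 and 83.6 in wt mice 3 and 4, and to 87.9 to 107 in the mutants. Within the TKO mice the sum did not follow Il2rb: it was 94.9 in mouse 3, which had the highest Il2rb, and 103 in mouse 1, which had the lowest. No gene of that list was under 3 counts in every mouse, and its part in the Il2rb level was not tested.

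Ctla4 encodes the inhibitory receptor by which regulatory T cells remove the B7 ligands from antigen-presenting cells. It (plus strand, chr1:60887000-60915832) had 9.30, 8.10, 8.84 and 7.96 CPM in wt mice, 12.8, 12.2, 10.5 and 10.5 in Zmat3-/- mice, and 9.66, 12.3 and 16.3 in TKO mice. All 7 mutant mice were above all 4 wt mice, by the least for TKO mouse 1. The fold over wt mice was 1.35 in Zmat3-/- mice (log2FC 0.44, SE 0.124, 95% interval 0.15 to 0.72, adjusted p = 0.139) and 1.44 in TKO mice (log2FC 0.52, SE 0.181, 95% interval 0.10 to 0.94, adjusted p = 0.426), and between the mutants it was 1.06 (adjusted p = 0.983). Ctla4 was thus not past the adjustment, although it had the smallest p of the 8 genes in both comparisons with wt mice, 0.00698 and 0.0211 before adjustment by edgeR. In Zmat3-/- over wt mice, DESeq2 gave a log2FC of 0.44 with adjusted p = 0.0139, where it called 8.04% of all genes. Without wt mice 1 and 2 the log2FC was 0.44 (adjusted p = 0.0331, with 33% of all genes called), and with the GC content and length trend of each library as an offset it was 0.48 (adjusted p = 0.0695). In TKO over wt mice these settings gave 0.54 (adjusted p = 0.157), 0.53 (adjusted p = 0.130) and 0.60 (adjusted p = 0.228), none past the threshold.

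The TNF receptor genes Tnfrsf4 (OX40; plus strand, chr4:156013843-156016612) and Tnfrsf18 (GITR; plus strand, chr4:156026164-156028895) lie 9551 bases apart on chromosome 4 and encode costimulatory receptors. Tnfrsf18 had 40.1, 38.2, 19.8 and 19.2 CPM in wt mice, 22.2, 21.5, 19.5 and 21.8 in Zmat3-/- mice, and 21.6, 19.4 and 21.2 in TKO mice. Tnfrsf4 had 21.9, 15.4, 6.06 and 6.65 CPM in wt mice, 8.65, 7.81, 6.16 and 6.02 in Zmat3-/- mice, and 6.79, 7.72 and 6.53 in TKO mice. For both genes wt mice 1 and 2 were above all other mice, and wt mice 3 and 4 were within or close to the range of the mutants. The log2FC of Tnfrsf18 was -0.45 in Zmat3-/- (SE 0.246, adjusted p = 0.404) and -0.54 in TKO mice over wt (SE 0.292, adjusted p = 0.556), and that of Tnfrsf4 was -0.79 (SE 0.399, adjusted p = 0.372) and -0.87 (SE 0.461, adjusted p = 0.549). Without wt mice 1 and 2 the log2FC of Tnfrsf18 was 0.11 in Zmat3-/- (adjusted p = 0.394) and 0.03 in TKO mice (adjusted p = 0.894), and that of Tnfrsf4 was 0.16 (adjusted p = 0.554) and 0.08 (adjusted p = 0.830). An antisense transcript, Gm16008, overlaps 27.2% of the exon bases of Tnfrsf18, but had only 2 to 22 counts per mouse.

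Across the genotypes, 0 of the 8 genes passed edgeR's quasi-likelihood test at an adjusted p under 0.05 in any comparison. In Zmat3-/- over wt mice 0.763% of all 13494 genes tested passed, in TKO over wt mice 0.294% of 13260 and in TKO over Zmat3-/- mice 0.221% of 13124. Before adjustment, 2 of 8 (Ctla4 and Ikzf4) had p under 0.05 in each comparison with wt mice, against 16.1% and 10.3% of all genes, and 0 of 8 in TKO over Zmat3-/- mice, against 4.5%. The groups did not overlap for the same pair of genes in both comparisons with wt mice, where 14.1% and 12.1% of all genes did not overlap, and for 0 of 8 between the mutants, against 4.92% (3.49% higher and 1.43% lower). Ctla4 was the higher one, as were 7.31% and 6.95% of all genes, and Ikzf4 the lower one, as were 6.75% and 5.15%. The median log2FC of the 8 genes was -0.18, -0.07 and -0.08 in the 3 comparisons, beside -0.03, -0.04 and -0.01 over all genes, with 3 higher and 5 lower each time. The mitochondrial share, which also did not overlap between Zmat3-/- and wt mice, was not tested for its part in the values of Ctla4 and Ikzf4. The order of the 3 genotypes therefore had no neighbours that differed at the threshold for any of the 8. The intervals still allow sizeable differences for the TNF receptors, since that of Tnfrsf4 in TKO over wt mice ran from -1.93 to 0.20 on the log2 scale, and they are narrow for Il2ra in Zmat3-/- mice (-0.19 to 0.28).

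**Figure D2:**
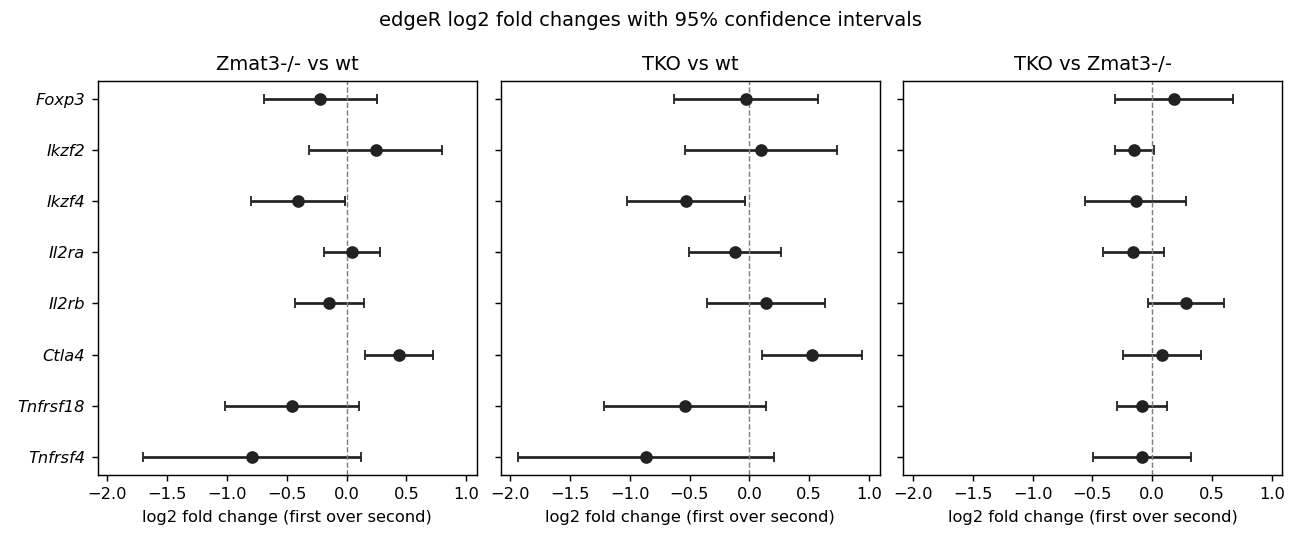
Log2 fold change (horizontal axes) of the 8 genes in Zmat3-/- over wt, TKO over wt and TKO over Zmat3-/- mice; points are edgeR estimates and bars 95% confidence intervals before adjustment for multiple tests. Only the intervals of Ctla4 and Ikzf4 lie off 0, in both comparisons with wt mice, where those of Tnfrsf4 are the widest.

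Differences among the wt mice followed the length of the transcripts and their GC content. All genes were put in 5 classes of equal size by length. The class with the shortest transcripts (up to 1803 bases) had a median deviation from the 11-mouse mean of 0.61 and 0.42 on the log2 scale in wt mice 1 and 2, and of -0.23 and -0.28 in wt mice 3 and 4. The class with the longest transcripts (from 5063 bases) had -0.57, -0.41, 0.16 and 0.15. By GC content, the highest of 5 such classes minus the lowest gave 0.59, 0.35, -0.23 and -0.18. The median of the shortest class was -0.09 to -0.01 in the 7 mutant mice. That of the longest class was 0.01 to 0.12 in 6 of them and 0.36 in TKO mouse 3, whose longest class minus its shortest gave 0.38, close to the 0.39 and 0.43 of wt mice 3 and 4. Tnfrsf4 and Tnfrsf18 are the shortest of the 8 genes, with longest transcripts of 1090 and 1189 bases, and Ikzf2 is the longest with 9278. Tnfrsf18 deviated by 0.79 and 0.72 in wt mice 1 and 2 and by -0.23 and -0.27 in wt mice 3 and 4. Tnfrsf4 deviated by 1.40 and 0.90 in wt mice 1 and 2, above the median of the class in both, as Tnfrsf18 was, and by -0.44 and -0.30 in wt mice 3 and 4. Ikzf2 deviated by -0.86, -0.32, 0.24 and 0.26. Ctla4 is also short, at 1933 bases, but was below the 11-mouse mean in all wt mice, by 0.18, 0.38, 0.25 and 0.40.

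**Figure D3:**
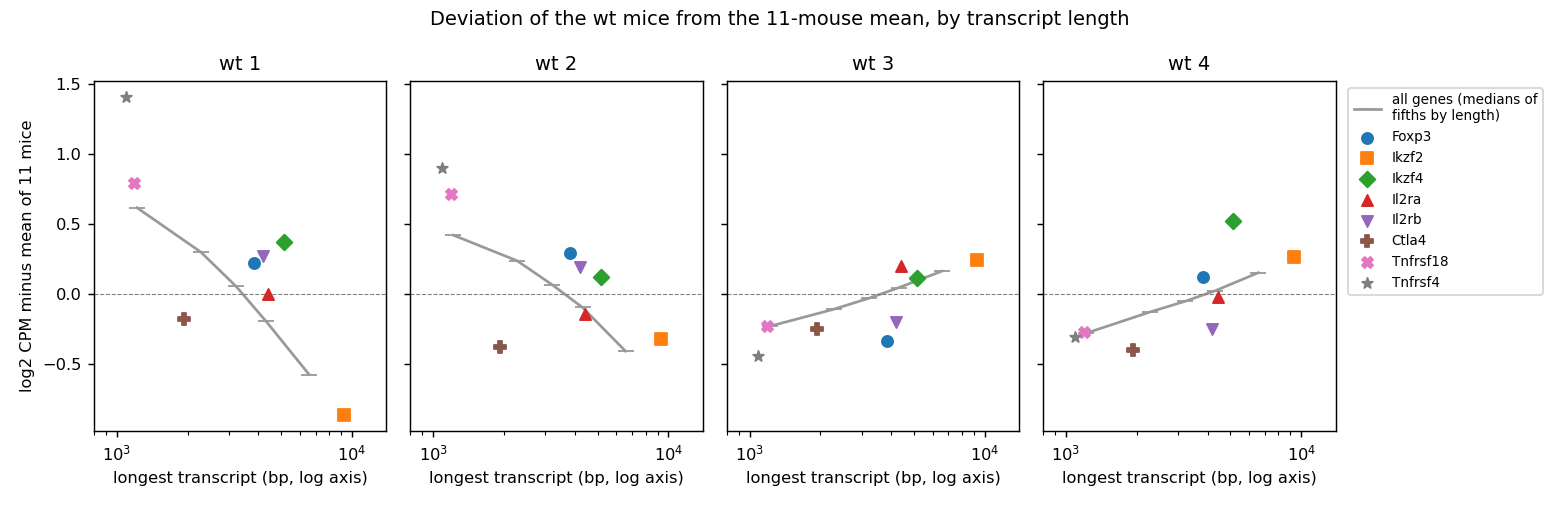
Deviation of log2 CPM from the mean of all 11 mice (vertical axes) against the length of the longest annotated transcript (horizontal log axes, bases) in each wt mouse; symbols are the 8 genes and the grey line joins the medians of all genes in 5 classes by length. The line falls with length in wt mice 1 and 2 and rises in wt mice 3 and 4; Tnfrsf18, Tnfrsf4 and Ikzf2 move with it, and Ctla4 lies below it in all 4 mice.

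With the GC content and length trend of each library entered as an offset, the log2FC in Zmat3-/- over wt mice was -0.13 for Tnfrsf18 (adjusted p = 0.398), -0.39 for Tnfrsf4 (adjusted p = 0.298) and -0.13 for Ikzf2 (adjusted p = 0.596), and 0 of 8 genes passed, beside 2.9% of all genes. In TKO over wt mice it was -0.15 for Tnfrsf18, -0.39 for Tnfrsf4 and -0.30 for Ikzf2, with 0 of 8 and 0.694%. Within the mice with high Xist, which compares Zmat3-/- mice 1 and 2 with wt mice 1 and 2, 5 of the 8 genes passed where 42.1% of all genes did: Tnfrsf4 with a log2FC of -1.15 (adjusted p = 0.00575), Tnfrsf18 with -0.81 (adjusted p = 0.00261), Il2rb with -0.35 (adjusted p = 0.0285), Ikzf2 with 0.65 (adjusted p = 0.0203) and Ctla4 with 0.55 (adjusted p = 0.0285). Within the mice with low Xist, Zmat3-/- mice 3 and 4 against wt mice 3 and 4, 1 of 8 passed, Ikzf4 with -0.69 (adjusted p = 0.0251), where 28.2% of all genes did. The log2FC of Ctla4 was 0.31 there (adjusted p = 0.148), that of Tnfrsf18 0.06 and that of Tnfrsf4 -0.08. In TKO over wt mice only the mice with low Xist could be compared, since 1 TKO mouse had high Xist; Il2rb passed there with 0.56 (adjusted p = 0.0469), where 3.02% of all genes did, and TKO mouse 1, which it leaves out, had the lowest Il2rb of all mice. The difference between both kinds of mice passed for 4 of the 8 genes, beside 44.2% of all genes. With 1 surrogate variable, 4 of 8 genes passed in Zmat3-/- over wt mice (Ctla4, Ikzf2, Tnfrsf18 and Tnfrsf4), where 37.8% of all genes did, and 2 of 8 in TKO over wt mice (Tnfrsf18 and Tnfrsf4), where 17.9% did, and 0 of 8 between the mutants, where 0.267% did. Foxp3 passed in none of these fits.

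**Figure D4:**
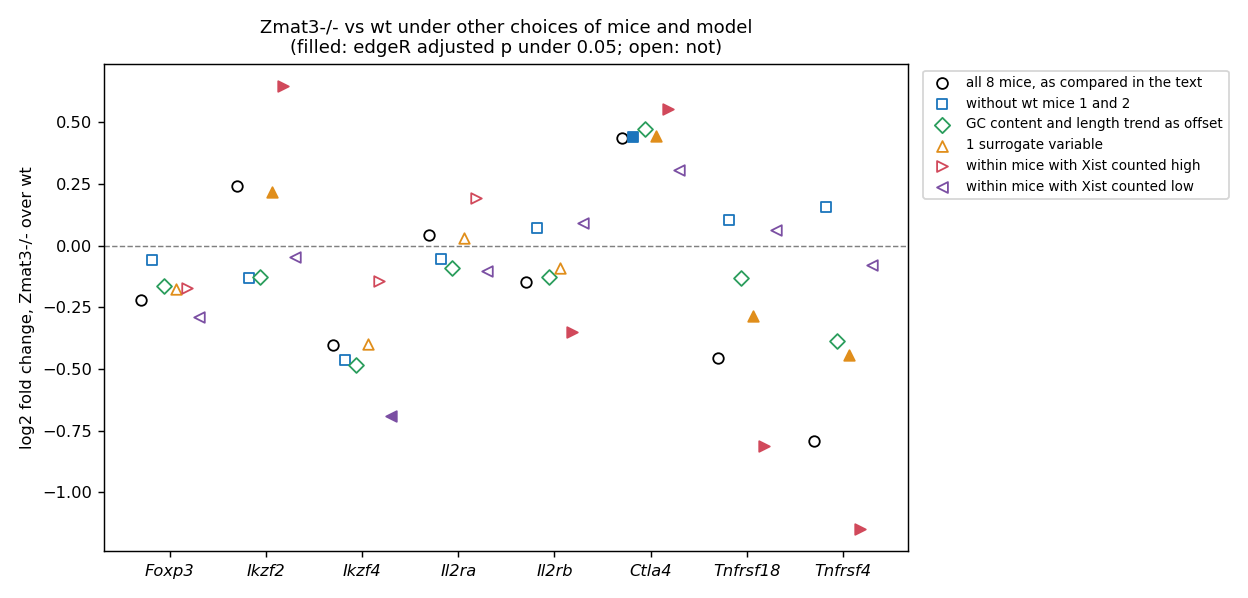
Log2 fold change in Zmat3-/- over wt mice (vertical axis) of the 8 genes under 6 choices of mice and model, one symbol each; filled symbols have an edgeR adjusted p under 0.05. Ctla4 stays between 0.31 and 0.55 and Ikzf4 below 0, while Tnfrsf18, Tnfrsf4, Il2ra, Il2rb and Ikzf2 lie on both sides of 0 across the settings.

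A ratio within a library does not depend on its scaling, so the other 7 genes were also set against Foxp3. Of 21 ratios compared between genotypes by a two-sided exact permutation test, 0 had p under 0.05, and the smallest p the design allows is 0.0286. The largest difference was that of Ctla4 to Foxp3, whose log2 ratio was 1.75 ± 0.141 (SD, n = 4) in Zmat3-/- and 1.10 ± 0.328 (SD, n = 4) in wt mice (exact permutation p = 0.0571, adjusted p = 0.545 over the 21 ratios). In TKO mice it was 1.63 ± 0.284 (SD, n = 3).

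The level of Foxp3 over the 11 mice was most like those of Gzmc (Pearson r = 0.923), Hip1r (0.904), Hoxa7 (0.903), Cadm4 (0.879) and Mypop (0.875) among 13479 genes. Their Spearman rho with Foxp3 was 0.818 to 0.945, and r was 0.809 to 0.889 without Zmat3-/- mouse 4 and wt mouse 3, the mice farthest from the median of Foxp3. Among the other 7 genes r ranged from 0.628 for Il2rb and 0.590 for Tnfrsf4 to -0.462 for Il2ra and -0.516 for Ikzf2. These values are descriptions over mice that differ in genotype, depth and library make-up.

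Genes that act around these markers were described by list, beside 0.763% of all genes called in Zmat3-/- over wt and 0.294% in TKO over wt mice, and beside 33% and 8.15% without wt mice 1 and 2. Of 29 genes of FOXP3 induction and partner factors, 1 rose and 0 fell in each comparison with wt mice: Nr4a1, an orphan nuclear receptor induced by T cell receptor signals, had 94.0 ± 17.3 CPM (SD, n = 4) in wt, 204 ± 25.1 (SD, n = 4) in Zmat3-/- and 215 ± 13.1 (SD, n = 3) in TKO mice (log2FC 1.13, adjusted p = 0.0191, and 1.15, adjusted p = 0.0354). When wt mice 1 and 2 were left out, 6 passed as higher and 4 as lower in Zmat3-/- mice, and 2 as higher and 0 as lower in TKO mice. The list's median log2FC was 0.20 and 0.29, and 0.00 and 0.10 without these mice. Of 24 tested genes of IL-2 receptor signalling 0 passed in any comparison of all mice, with medians of 0.12, 0.08 and -0.01. After wt mice 1 and 2 were left out, 8 passed as higher and 4 as lower in Zmat3-/- mice, and 1 each way in TKO mice. With the GC content and length offset, 1 passed each way in Zmat3-/- mice, beside 2.9% of all genes. Il2 itself, named after its values were seen, had 0 to 0.0672 CPM.

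Of 32 tested other surface and effector genes of regulatory T cells (such as Icos, Tigit, Nrp1, Izumo1r and Lrrc32), 0 passed with all mice. In Zmat3-/- over wt mice 22 of them were lower and 10 higher, with a median of -0.15, and without wt mice 1 and 2, 16 were lower and 16 higher, with a median of 0.02. In that fit 4 passed as higher and 5 as lower, and 1 each way in TKO mice. Of the 10 ligands (among them Tnfsf4 and Tnfsf18, which bind OX40 and GITR), 6 were tested against wt mice and 0 passed, while 2 of 6 passed as higher in Zmat3-/- mice without wt mice 1 and 2 and 0 of 5 in TKO mice. The Tnfsf4 transcript, also named after its values were seen, was at 0.0331 to 0.556 CPM and Tnfsf18 at 0 to 0.269, so neither ligand could be compared at this depth. Of 20 immediate-early and receptor-induced genes, 5 rose and 0 fell in each comparison with all 4 wt mice, namely Fosb, Klf4, Dusp1, Nr4a2 and Klf6, with log2FC from 1.12 to 3.73 in Zmat3-/- and from 0.97 to 3.84 in TKO mice. In the fit without wt mice 1 and 2, 14 passed as higher and 4 as lower in Zmat3-/- mice, and 14 and 2 in TKO mice. With the GC content and length offset it was 10 and 2 in Zmat3-/- mice, beside 2.9% of all genes, and 6 and 0 in TKO mice, beside 0.694%. Between the mutants 0 genes of any of these lists passed, with 0 of 8 markers.

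Markers of other cells in the suspension also differed between the wt pairs. Those of gamma-delta T cells summed to 279 and 255 CPM in wt mice 1 and 2, to 185 and 177 in wt mice 3 and 4 and to 137 to 194 in the mutants. B cell genes summed to 103 and 130 CPM against 59.5 and 71.9 in the wt pairs, dendritic cell and macrophage genes to 275 and 308 against 184 and 179, epithelial and stromal genes to 262 and 245 against 160 and 171, and mature single-positive thymocyte genes to 632 and 649 against 541 and 545. Others ran the other way: early double-negative genes summed to 174 and 165 CPM in wt mice 1 and 2 against 190 and 196 in wt mice 3 and 4, and Rag1, of the recombinase of immature thymocytes, had 1603 and 2243 against 5270.3 and 4939. Erythroid genes ran from 880 in wt mouse 2 to 8561 in wt mouse 3. Their part in the levels of Tnfrsf18, Tnfrsf4 and Il2rb was not tested.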

How the data were processed

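Thymocyte RNA-seq from 11 mice (4 wt, 4 Zmat3-/-, 3 TKO) was used, grouped by the genotype and number in the labels. The authors quantified the reads with Salmon in nf-core/rnaseq (GRCm38.p6) and deposited estimated counts per gene, all whole numbers and not scaled; 54166 of the 54418 genes matched GENCODE M21 by identifier. Tested genes reached 20 counts (relative to the smallest library) in at least the number of mice of the smaller group, without Xist, chromosome Y, ribosomal RNA and immunoglobulin pseudogenes. Each pair of genotypes was compared by edgeR 4.0.16 in R 4.3.3 with TMM, quasi-likelihood F-test, two-sided, Benjamini-Hochberg over all genes. The SE is the absolute log2FC over the square root of F. CPM used TMM factors; log2 CPM a prior count of 2. The script was tested on simulated data. The study used DESeq2 with sex and surrogate variables, a model that was not fitted here as a whole. Its parts were tried singly: DESeq2 1.42.0 without covariates, edgeR with Xist for sex, and edgeR with 1 surrogate variable (sva 3.50.0). Other alternatives were RLE factors, no filter, 1 joint fit, the replicate block and each mouse left out; those added after the data were seen were total counts, wt mice 1 and 2 left out, the GC content and length offset, and fits split by Xist at 100 CPM. The 8 genes and the lists were chosen with earlier results of these data known. Named were all 8 genes, up to 6 genes per list past the test, and the 5 genes most like Foxp3. Mice are separate samples, but littermates are not stated. The summed level of the alpha-beta thymocyte list is not reported here.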

Additional observations from a re-analysis of the deposited data

Results flagged for a closer look

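The difference in log2FC (Zmat3-/- over wt) between the mice with high Xist (mice 1 and 2 of each genotype) and those with low Xist (mice 3 and 4) passed edgeR's test for 4 of the 8 genes, while 44.2% of all 13494 genes passed it. It was 0.68 for Ikzf2 (adjusted p = 0.0182), -1.08 for Tnfrsf4 (adjusted p = 0.00951), -0.89 for Tnfrsf18 (adjusted p = 0.00119) and -0.45 for Il2rb (adjusted p = 0.0145). The share is near the background, and the Xist level goes with the wt pairs that stand apart, so both cannot be told apart here. The interaction was added after the data were seen. Of 16 groups of 4 mice tested for a mouse far from the others (Dixon test), 0 were flagged. A test for a single far mouse cannot flag a split into pairs, such as that of the wt mice for Tnfrsf18 and Tnfrsf4.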

How the results depend on the processing

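No gene of the 8 passed in the main comparisons or when any 1 mouse was left out. Values that left their direction or their side of the threshold, or counts that moved by more than 1.5 times, are given here by setting; the cause was not tested. The number of all genes called, 103 in Zmat3-/- over wt, 39 in TKO over wt and 29 in TKO over Zmat3-/- mice, changed as follows. Values in parentheses are log2FC. With 1 surrogate variable, the count was 5102 in Zmat3-/- over wt and 2378 in TKO over wt mice. Ctla4 (0.45), Ikzf2 (0.22), Tnfrsf18 (-0.28) and Tnfrsf4 (-0.44) passed there in Zmat3-/- over wt mice, 4 of 8 genes. Tnfrsf18 (-0.33) and Tnfrsf4 (-0.48) passed there in TKO over wt mice, 2 of 8 genes. Foxp3 (0.015) changed sign there in TKO over wt mice. Tnfrsf4 (0.032) changed sign there in TKO over Zmat3-/- mice. With DESeq2, the count was 1085 in Zmat3-/- over wt, 381 in TKO over wt and 73 in TKO over Zmat3-/- mice. Ctla4 (0.44) passed there in Zmat3-/- over wt mice, 1 of 8 genes. With the GC content and length offset, the count was 391 in Zmat3-/- over wt and 92 in TKO over wt mice. Il2ra (-0.092) and Ikzf2 (-0.13) changed sign there in Zmat3-/- over wt mice. Foxp3 (0.036) and Ikzf2 (-0.30) changed sign there in TKO over wt mice. With the Xist level as a covariate, the count was 177 in Zmat3-/- over wt mice. With all 3 genotypes in one fit, the count was 239 in Zmat3-/- over wt, 216 in TKO over wt and 16 in TKO over Zmat3-/- mice. With no filter on low counts, the count was 55 in Zmat3-/- over wt, 61 in TKO over wt and 90 in TKO over Zmat3-/- mice. Foxp3 (0.011) changed sign there in TKO over wt mice. With the replicate block, the count was 12 in Zmat3-/- over wt and 16 in TKO over wt mice. Foxp3 (0.00231) changed sign there in TKO over wt mice. With total counts and no TMM factors, the count was 166 in Zmat3-/- over wt mice. Il2ra (-0.073) changed sign there in Zmat3-/- over wt mice. Within mice with high Xist, the count was 6004 in Zmat3-/- over wt mice. Il2rb (-0.35), Ctla4 (0.55), Ikzf2 (0.65), Tnfrsf18 (-0.81) and Tnfrsf4 (-1.15) passed there in Zmat3-/- over wt mice, 5 of 8 genes. Within mice with low Xist, the count was 3881 in Zmat3-/- over wt, 400 in TKO over wt and 14 in TKO over Zmat3-/- mice. Ikzf4 (-0.69) passed there in Zmat3-/- over wt mice, 1 of 8 genes. Il2ra (-0.10), Il2rb (0.091), Ikzf2 (-0.044) and Tnfrsf18 (0.064) changed sign there in Zmat3-/- over wt mice. Il2rb (0.56) passed there in TKO over wt mice, 1 of 8 genes. Foxp3 (0.26), Ikzf2 (-0.27) and Tnfrsf4 (0.082) changed sign there in TKO over wt mice. Ikzf4 (0.099) and Tnfrsf4 (0.15) changed sign there in TKO over Zmat3-/- mice. Without wt mice 1 and 2, the count was 4649 in Zmat3-/- over wt and 1098 in TKO over wt mice. Ctla4 (0.44) passed there in Zmat3-/- over wt mice, 1 of 8 genes. Il2ra (-0.055), Il2rb (0.074), Ikzf2 (-0.13), Tnfrsf18 (0.11) and Tnfrsf4 (0.16) changed sign there in Zmat3-/- over wt mice. Foxp3 (0.13), Ikzf2 (-0.27), Tnfrsf18 (0.029) and Tnfrsf4 (0.082) changed sign there in TKO over wt mice. With each mouse left out in turn, the count ranged from 17 to 105 in Zmat3-/- over wt and 16 to 42 in TKO over wt mice. The log2FC then ranged from -0.019 to 0.11 for Il2ra in Zmat3-/- over wt, -0.20 to 0.13 for Foxp3 in TKO over wt, -0.093 to 0.25 for Ikzf2 in TKO over wt, -0.20 to 0.029 for Il2ra in TKO over wt, -0.19 to 0.041 for Tnfrsf4 in TKO over Zmat3-/- and -0.046 to 0.23 for Ctla4 in TKO over Zmat3-/- mice, and the difference in log2 ratio to Foxp3 from -0.088 to 0.47 for Ikzf2 in TKO over wt, -0.32 to 0.22 for Il2ra in TKO over wt, -0.015 to 0.18 for Il2rb in Zmat3-/- over wt, -0.10 to 0.16 for Il2rb in TKO over Zmat3-/-, -0.27 to 0.0096 for Ctla4 in TKO over Zmat3-/- and -0.014 to 0.24 for Il2rb in TKO over wt mice. A group left with few mice was assumed to vary like the others. The shared mouse numbers were not used as pairs: the correlation of the deviations of same-numbered mice was 0.325, 0.0867, 0.221 and 0.266 in Zmat3-/- over wt, 0.0730, 0.285 and 0.386 in TKO over wt, 0.164, 0.00414 and 0.167 in TKO over Zmat3-/- mice, and 4 of 8 mice, 4 of 6 mice and 3 of 6 mice correlated best with their own number. The replicate block called 12, 16 and 20 genes and 0 of the 8. Of all values recomputed, 624 kept their direction and their side of the threshold or, for counts, stayed within 1.5 times. Another 46 changed direction, 40 counts moved further and 15 values came to pass the threshold. The depth limits Foxp3 most, with 67 to 313 counts per mouse, and 3 counts correspond to 0.0403 to 0.167 CPM.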
